A study of Arabidopsis with 9 samples.

Results

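ATG8A to ATG8I and NBR1 are 10 autophagy genes of Arabidopsis, chosen by their gene identifiers in the authors' deposited table of differential expression. All 10 were found, among 31747 loci, and all 10 passed the filter of at least 1 FPKM in at least 1 condition, as did 18505 loci in all. FPKM counts fragments scaled to transcript length and sequencing depth, so levels can be compared between genes. RNA came from whole seedlings aged 14 days and grown in long days without treatment, and the labels give 3 biological replicates each of the mutants swi3d-1 and syd-5 and of the wild type (WT). Both mutants carry an allele of a subunit of SWI/SNF chromatin remodelling complexes, SWI3D being a scaffold protein and SYD the ATPase that moves nucleosomes. The conditions in the table are 310-3d, syd-5 and WT, and the name 310-3d is found in no label. It was not assigned to a labelled genotype, so swi3d-1 has no values under its own name. The table has 1 pooled value per locus and condition and no read depth, so the spread between replicates could not be examined. All FPKM and q values given are from the authors' deposited table. The error of each log2 ratio to WT was taken from the authors' test statistic.

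Autophagy carries cytoplasm, organelles and protein aggregates to the vacuole inside a double membrane. ATG8 is a small ubiquitin-like protein that becomes attached to phosphatidylethanolamine in that membrane, where it binds both the machinery and the receptors that bring in cargo. NBR1 is such a receptor, which binds ubiquitin and ATG8 and is itself broken down with its cargo. In plants ATG8 is a gene family, and its transcripts are known to rise under carbon or nitrogen starvation and in senescence.

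ATG8E rose in both 310-3d and syd-5, and none of the other 9 genes passed the test. In the authors' deposited table ATG8E (AT2G45170, chromosome 2, 18624264 to 18625717, TAIR10) stood at 134.2 FPKM in 310-3d, 150.5 FPKM in syd-5 and 95.3 FPKM in WT. Its log2 ratio to WT was 0.49 in 310-3d (implied SE 0.225, q = 0.00194) and 0.66 in syd-5 (implied SE 0.224, q = 0.000567). These were rises of 40.8% in 310-3d and 57.9% in syd-5. Most called rises in the table were larger. Of called rises, 17.4% in 310-3d and 35.9% in syd-5 had a smaller log2 ratio than ATG8E. The median implied SE of all tested loci was 0.294 in 310-3d and 0.295 in syd-5. A locus with a larger error than ATG8E is called only at a larger ratio. In whole seedlings, a change in the number of cells that express a gene and a change in RNA per cell cannot be told apart.

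The share of the 10 genes that were called was not above that of all loci. In 310-3d, 1 of 10 rose and 0 fell in the authors' Cuffdiff test, where 13.7% of 18450 tested loci rose and 14.4% fell. In syd-5, 1 of 10 rose and 0 fell, where 13.8% of 18442 tested loci rose and 14.1% fell. ATG8E was also the only one of the 10 with an unadjusted p below 0.05 in each comparison. Of all tested loci, 7040 of 18450 in 310-3d and 7009 of 18442 in syd-5 had such a p in Cuffdiff. The log2 fold change of (FPKM + 1) was above 0 for 9 of 10 genes in 310-3d, with a median of 0.22. It was above 0 for 10 of 10 in syd-5, with a median of 0.24. Over all tested loci the median was -0.01 in 310-3d and 0.01 in syd-5, and 48.3% and 51.2% of loci were above 0. Both comparisons use the same WT value, so the shared direction does not come from independent measurements.

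**Figure D1:**
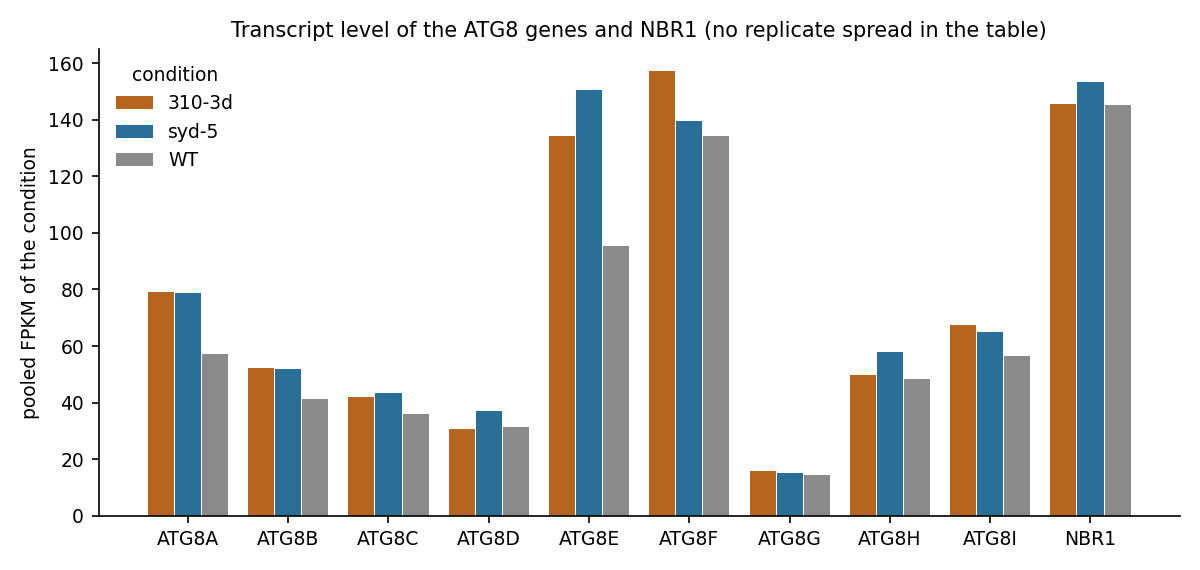
Pooled FPKM (vertical axis) of each of the 9 ATG8 genes and NBR1 in 310-3d, syd-5 and WT; bars have no error because the table holds 1 value per condition. NBR1, ATG8F and ATG8E are the 3 highest in every condition and ATG8G the lowest, at 15.6 FPKM in 310-3d, 15.1 FPKM in syd-5 and 14.5 FPKM in WT.

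The levels of the 9 ATG8 genes spanned about an order of magnitude. ATG8F (AT4G16520, chromosome 4, 9306663 to 9308654) was the highest on average, with 157.1 FPKM in 310-3d, 139.6 FPKM in syd-5 and 134.3 FPKM in WT in the authors' deposited table. ATG8G (AT3G60640, chromosome 3, 22415835 to 22417158) was the lowest. The highest ATG8 level was 10.04 times the lowest in 310-3d, 9.96 times in syd-5 and 9.26 times in WT. In WT the order was ATG8F, ATG8E, ATG8A, ATG8I, ATG8H, ATG8B, ATG8C, ATG8D and ATG8G. The order differed in syd-5 in that ATG8E stood above ATG8F, and in 310-3d in that ATG8B stood above ATG8H. Without replicate values it could not be tested which neighbours in that order differ. At 15.6 FPKM in 310-3d, 15.1 FPKM in syd-5 and 14.5 FPKM in WT, even ATG8G was close to the median kept locus, which had 14.5 FPKM in 310-3d, 14.5 FPKM in syd-5 and 14.4 FPKM in WT.

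Added over the 9 loci, ATG8 transcripts came to 628 FPKM in 310-3d, 639 FPKM in syd-5 and 515 FPKM in WT. The sum was 21.9% higher in 310-3d than in WT and 24.0% higher in syd-5 than in WT, as a description with no test. ATG8E made up 21.4% of the sum in 310-3d, 23.6% in syd-5 and 18.5% in WT. It accounted for 34.5% of the difference in the sum between 310-3d and WT and for 44.6% of that between syd-5 and WT. In 310-3d the next largest parts of the difference were those of ATG8F, at 20.2%, and ATG8A, at 19.6%. In syd-5 ATG8A contributed 17.6% and ATG8F 4.29%. Without ATG8E, the other ATG8 loci summed to 494 FPKM in 310-3d, 489 FPKM in syd-5 and 420.0 FPKM in WT.

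Among the ATG8 genes that did not pass the test, ATG8F and ATG8I had the smallest unadjusted p in 310-3d (0.0746 and 0.0803), and ATG8H and ATG8C in syd-5 (0.0718 and 0.0741). ATG8C (AT1G62040, chromosome 1, 22932760 to 22934549) had 42.0 FPKM in 310-3d, 43.3 FPKM in syd-5 and 36.0 FPKM in WT in the authors' deposited table. Its log2 ratio was 0.22 in 310-3d (q = 0.315) and 0.27 in syd-5 (q = 0.214). ATG8I (AT3G15580, chromosome 3, 5273895 to 5275095) had 67.4 FPKM in 310-3d, 64.9 FPKM in syd-5 and 56.6 FPKM in WT. Its log2 ratio was 0.25 in 310-3d (q = 0.226) and 0.20 in syd-5 (q = 0.376). ATG8H and ATG8I form a group of their own in the family, since their proteins end at the glycine that is joined to the lipid and need no trimming by the protease ATG4. ATG8H (AT3G06420, chromosome 3, 1954990 to 1956397) had 49.7 FPKM in 310-3d, 57.9 FPKM in syd-5 and 48.4 FPKM in WT. Its log2 ratio was 0.04 in 310-3d (q = 0.908) and 0.26 in syd-5 (q = 0.209).

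The values of ATG8D and ATG8F leaned to one condition each. ATG8D (AT2G05630, chromosome 2, 2082986 to 2084882) had 30.5 FPKM in 310-3d, 37.1 FPKM in syd-5 and 31.5 FPKM in WT in the authors' deposited table. It was the one gene of the 10 with a lower value in 310-3d or syd-5 than in WT, at a log2 ratio of -0.05 in 310-3d (q = 0.890). In syd-5 its log2 ratio was 0.24 (q = 0.320). ATG8F had a log2 ratio of 0.23 in 310-3d (q = 0.215) and 0.06 in syd-5 (q = 0.832). Neither difference between the conditions passed the test of 310-3d against syd-5. ATG8G had a log2 ratio of 0.11 in 310-3d (q = 0.788) and 0.06 in syd-5 (q = 0.894).

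NBR1 was the most expressed of the 10 genes in syd-5 and in WT, and its level hardly differed between conditions. NBR1 (AT4G24690, chromosome 4, 12741033 to 12744533) stood at 145.6 FPKM in 310-3d, 153.4 FPKM in syd-5 and 145.2 FPKM in WT in the authors' deposited table. Its log2 ratio was 0.004 in 310-3d (implied SE 0.228, q = 0.990) and 0.08 in syd-5 (implied SE 0.229, q = 0.755). The 95% interval of the ratio ran from 0.735 to 1.37 in 310-3d and from 0.774 to 1.44 in syd-5. The ATG8E ratio of syd-5, 1.58, lies outside both. That of 310-3d, 1.41, lies inside the NBR1 interval of syd-5. The ATG8E interval in syd-5, from 1.16 to 2.14, overlaps both NBR1 intervals. NBR1 transcript amounted to 23.2% of the ATG8 sum in 310-3d, 24.0% in syd-5 and 28.2% in WT.

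**Figure D2:**
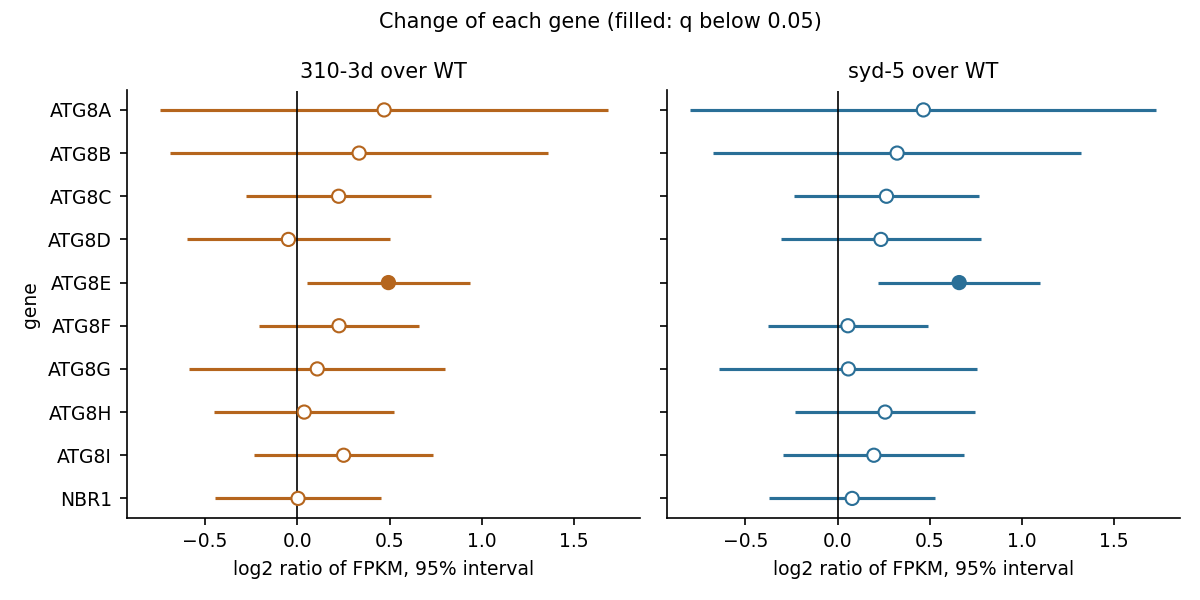
Log2 ratio of FPKM to WT (horizontal axis) in 310-3d on the left and syd-5 on the right, with the 95% interval from the authors' test statistic; filled points passed q below 0.05. ATG8E alone is filled, at 0.49 in 310-3d and 0.66 in syd-5, and the intervals of ATG8A and ATG8B are the widest.

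A missed threshold does not show that a gene did not change, and the intervals give what the data allow. All 9 genes other than ATG8E had an interval that held a ratio of 1 in both comparisons. For 7 of these 9 genes it lay within a doubling and a halving in each comparison. The bounds of those 7 ran from 0.661 to 1.74 in 310-3d and from 0.641 to 1.71 in syd-5. The exceptions were ATG8A and ATG8B. These intervals use errors from the test statistic, a median 1.74 times those that match the authors' p. With errors on the scale of p, chosen after the data were seen, all 9 intervals still held a ratio of 1. Those of 8 of the 9 genes then lay within a doubling and a halving, ATG8B among them, with upper bounds of 1.90 in 310-3d and 1.86 in syd-5. ATG8A was the exception, with upper bounds of 2.25 in 310-3d and 2.28 in syd-5.

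ATG8A and ATG8B had, after ATG8E, the largest ratios to WT in 310-3d and syd-5 and the largest errors of the 10. In the authors' deposited table ATG8A (AT4G21980) had 79.2 FPKM in 310-3d, 78.9 FPKM in syd-5 and 57.2 FPKM in WT. Its log2 ratio was 0.47 in 310-3d (q = 0.373) and 0.47 in syd-5 (q = 0.404), close to that of ATG8E in 310-3d. The implied SE of ATG8A was 0.619 in 310-3d and 0.645 in syd-5, more than that of 97.5% of the 3357 tested loci with a mean between 30 and 80 FPKM. ATG8B (AT4G04620) had 52.3 FPKM in 310-3d, 51.8 FPKM in syd-5 and 41.4 FPKM in WT. Its log2 ratio was 0.34 in 310-3d (q = 0.474) and 0.32 in syd-5 (q = 0.473), with an implied SE of 0.522 in 310-3d and 0.509 in syd-5. The other 8 genes had implied SE between 0.222 and 0.354 in 310-3d and between 0.222 and 0.357 in syd-5. The interval of the ATG8A ratio ran from 0.598 to 3.21 in 310-3d and from 0.575 to 3.31 in syd-5.

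These are also the only members whose listed spans overlap that of another locus of the table, and the overlapping gene fell strongly in each case. The ATG8A locus is listed with the same span as that of APR3 (AT4G21990), chromosome 4, 11655562 to 11659167. A span listed for both genes may cover more than either, so the bases that the genes themselves share are not known here. The ATG8B locus also carries the name of AT4G04614 and is listed with the same span as that of APR1 (AT4G04610), chromosome 4, 2324936 to 2330487. APR1 and APR3 encode APS reductases, enzymes of sulphate assimilation. APR3 had 48.0 FPKM in 310-3d, 53.0 FPKM in syd-5 and 197.0 FPKM in WT in the authors' deposited table, with log2 ratios of -2.04 in 310-3d and -1.89 in syd-5. APR1 had 20.2 FPKM in 310-3d, 19.9 FPKM in syd-5 and 86.0 FPKM in WT, with log2 ratios of -2.09 in 310-3d and -2.11 in syd-5. All 4 of these falls passed the test (q = 0.000567 each). The strandedness of the libraries is not given in the sources used here, and without strand reads where neighbouring genes overlap cannot be told apart. A part of APR1 and APR3 reads in the values of ATG8B and ATG8A was not tested, and ATG8B reads cannot be split from those of AT4G04614. APR1 and APR3 were named after their values were seen.

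**Figure D3:**
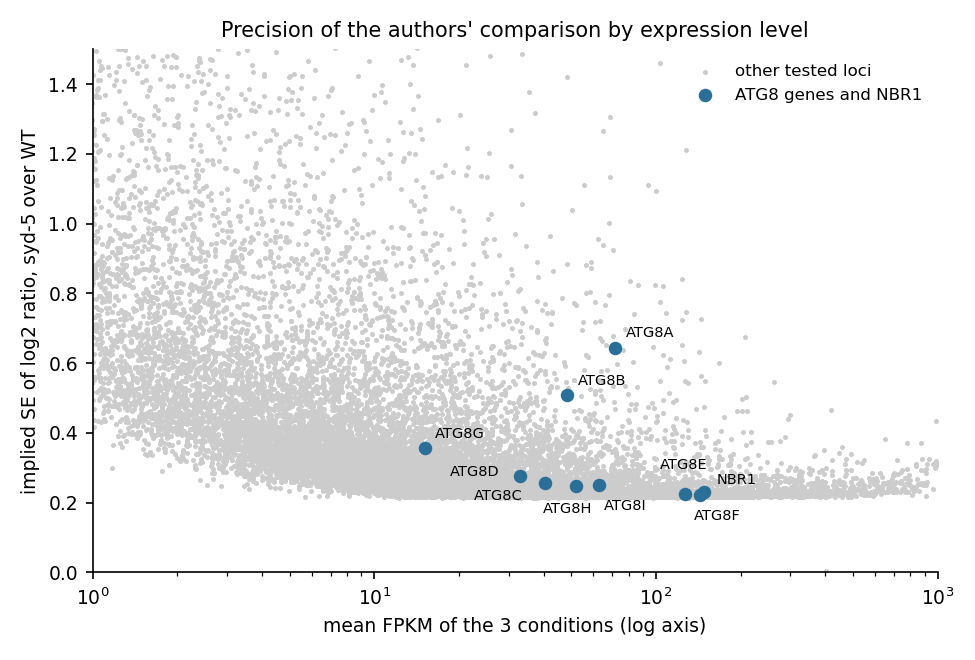
Implied SE of the log2 ratio of syd-5 to WT (vertical axis) against the mean FPKM of the 3 conditions (horizontal log axis), with tested loci in grey and the 10 genes in blue; 852 of 18407 loci lie beyond the axes. ATG8A and ATG8B stand apart at 0.645 and 0.509, while the other 8 genes lie between 0.222 and 0.357.

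The comparison of 310-3d with syd-5 found no difference for any of the 10 genes. It used the difference of the log2 ratios to WT, with errors on the scale of the authors' p and Benjamini-Hochberg adjustment over 18382 loci. In all, 0 of 10 genes passed, 0 had an unadjusted p below 0.05, and the smallest was 0.209, for ATG8D. Of all loci tested, 17 or 0.0925% passed. The differences of the 10 genes ran from -0.28 for ATG8D to 0.17 for ATG8F. For ATG8E, 310-3d stood at 134.2 FPKM and syd-5 at 150.5 FPKM, a log2 difference of -0.17 with a 95% interval from -0.52 to 0.19. On simulated differences of 1 and 2 in log2 the test recovered 56% and 87%, but only 5% of differences of 0.5, so differences of the size seen here could hardly be found.

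The mutated genes themselves were checked. In the authors' deposited table SYD (AT2G28290) had 24.3 FPKM in 310-3d, 4.11 FPKM in syd-5 and 23.1 FPKM in WT. SWI3D (AT4G34430) had 3.81 FPKM in 310-3d, 16.0 FPKM in syd-5 and 16.4 FPKM in WT. SYD fell in syd-5 and SWI3D in 310-3d (q = 0.000567 each), and these levels were not used to assign 310-3d to a genotype.

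The rest of the autophagy machinery had few calls, in both directions. Over 35 genes for initiation, membrane supply and conjugation, of which 34 were tested, 2 rose and 3 fell in 310-3d, and 1 rose and 3 fell in syd-5. The shares called among all tested loci were 28.1% in 310-3d and 27.9% in syd-5. Changes of the genes outside the 10 are given from here on, unless named a ratio, as log2 fold changes of (FPKM + 1). The median of the 34 was 0.10 in 310-3d and 0.07 in syd-5. The gene that was not tested, ATG18E, was listed at 0.156 FPKM in 310-3d, 0.171 FPKM in syd-5 and 0 in WT.

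Initiation begins with the ATG1 kinase complex and a lipid kinase complex around VPS34. Of 14 tested genes of this group, 1 rose and 1 fell in 310-3d, and 0 rose and 1 fell in syd-5. The shares over all tested loci were 13.7% up and 14.4% down in 310-3d, and 13.8% up and 14.1% down in syd-5. ATG13B, a regulatory subunit of the ATG1 complex, had 3.70 FPKM in 310-3d, 3.59 FPKM in syd-5 and 5.43 FPKM in WT in the authors' deposited table. It fell by 0.45 in log2 fold change in 310-3d (q = 0.0155) and by 0.49 in syd-5 (q = 0.00494). Its paralogue ATG13A did not pass (0.26 in 310-3d, q = 0.137, and 0.22 in syd-5, q = 0.239). ATG14A, a subunit of the lipid kinase complex at a locus merged with AT1G77910, rose in 310-3d (0.53, q = 0.00596) and stood at 0.34 in syd-5 (q = 0.0934).

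Membrane supply rests on ATG9, ATG2 and the ATG18 proteins, which bind phosphoinositides. Of 11 tested genes, 1 rose and 1 fell in 310-3d, and 1 rose and 2 fell in syd-5. The shares over all tested loci were 13.7% up and 14.4% down in 310-3d, and 13.8% up and 14.1% down in syd-5. ATG18B had 16.2 FPKM in 310-3d, 15.1 FPKM in syd-5 and 8.95 FPKM in WT in the authors' deposited table. Its rise was 0.79 in 310-3d and 0.70 in syd-5 (q = 0.000567 each), more than that of ATG8E. ATG18H fell by 0.51 in 310-3d and by 0.51 in syd-5 (q = 0.000567 each). ATG18G fell by 0.34 in syd-5 (q = 0.0284) and stood at -0.26 in 310-3d (q = 0.120). ATG9 stood at 0.09 in 310-3d (q = 0.674) and 0.07 in syd-5 (q = 0.784).

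The conjugation enzymes process ATG8 and join it to its lipid. Of 9 tested genes, 0 rose and 1 fell in 310-3d, and 0 rose and 0 fell in syd-5, where 1 had an unadjusted p below 0.05 in Cuffdiff. The shares over all tested loci were 13.7% up and 14.4% down in 310-3d, and 13.8% up and 14.1% down in syd-5. In syd-5, 7009 of 18442 tested loci had an unadjusted p below 0.05 in Cuffdiff. ATG3, the conjugating enzyme that hands ATG8 to the lipid, lies at a locus merged with 3 other names. That locus had 83.5 FPKM in 310-3d, 84.2 FPKM in syd-5 and 105.3 FPKM in WT in the authors' deposited table. It fell by 0.33 in 310-3d (q = 0.0457) and stood at -0.32 in syd-5 (q = 0.0544), so the threshold lies between these nearly equal values. The proteases ATG4A and ATG4B, the activating enzyme ATG7 and ATG5 did not pass in either comparison.

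**Figure D4:**
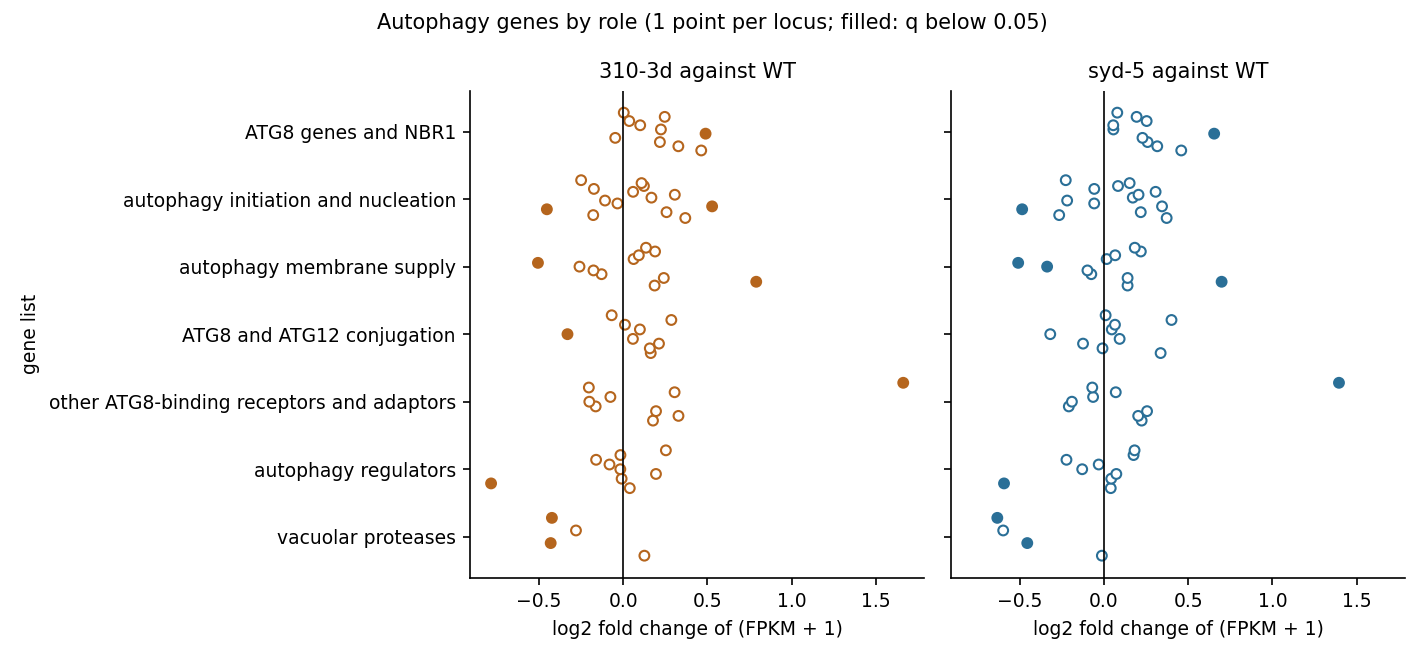
Log2 fold change of (FPKM + 1) against WT (horizontal axis) for each tested locus of the autophagy lists in 310-3d on the left and syd-5 on the right; filled points passed q below 0.05. Most points lie near 0, with TSPO the farthest to the right at 1.66 in 310-3d and 1.39 in syd-5.

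Among the other receptors and adaptors that bind ATG8, 9 loci were tested. TSPO, a membrane protein known for induction by abscisic acid and for removal by autophagy, had 3.53 FPKM in 310-3d, 2.76 FPKM in syd-5 and 0.430 FPKM in WT in the authors' deposited table. TSPO had a log2 ratio of 3.04 in 310-3d (q = 0.000567) and 2.68 in syd-5 (q = 0.00151), and a log2 fold change of (FPKM + 1) of 1.66 in 310-3d and 1.39 in syd-5. It passed the filter of 1 FPKM only through 310-3d and syd-5, so it could enter the tested set only by being higher there, and its call does not speak for the group. Of the other 8 tested loci, 0 were called in either comparison, and 1 in each had an unadjusted p below 0.05 in Cuffdiff. Among all tested loci 28.1% were called in 310-3d and 27.9% in syd-5. An unadjusted p below 0.05 in Cuffdiff was found at 7040 of 18450 loci in 310-3d and 7009 of 18442 in syd-5. ATI1 and ATI2, which bind ATG8 at the endoplasmic reticulum and plastids, stood at 0.33 and 0.20 in 310-3d (q = 0.212 and 0.298) and at 0.20 and 0.26 in syd-5 (q = 0.517 and 0.144). The ubiquitin receptors DSK2A and DSK2B share 1 merged locus, at -0.08 in 310-3d (q = 0.753) and -0.06 in syd-5 (q = 0.788).

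Of 9 regulators of autophagy, HY5 alone was called, where 28.1% of all tested loci were called in 310-3d and 27.9% in syd-5. HY5 is a light-signalling transcription factor known to repress autophagy genes in the light. Its locus, merged with AT5G11242 and AT5G11250, had 34.5 FPKM in 310-3d, 39.5 FPKM in syd-5 and 60.2 FPKM in WT in the authors' deposited table. The locus fell by 0.78 in 310-3d (q = 0.000567) and by 0.59 in syd-5 (q = 0.00275), and its part in the level of ATG8E was not tested. KIN10, a catalytic subunit of the energy-sensing kinase SnRK1, stood at -0.01 in 310-3d (q = 0.976) and 0.04 in syd-5 (q = 0.873). TOR, the kinase that restrains autophagy when nutrients are plentiful, stood at 0.25 in 310-3d (q = 0.234) and 0.18 in syd-5 (q = 0.470).

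Vacuolar proteases, which act where autophagic bodies end, had 0 rises and 2 falls among 4 tested genes in each comparison, where 14.4% of all tested loci fell in 310-3d and 14.1% in syd-5. RD21A, a papain-like protease, had 416 FPKM in 310-3d, 408 FPKM in syd-5 and 560.2 FPKM in WT in the authors' deposited table, and it fell by 0.43 in 310-3d (q = 0.0215) and by 0.46 in syd-5 (q = 0.0123). The vacuolar processing enzyme gene VPE-gamma fell by 0.42 in 310-3d (q = 0.0106) and by 0.63 in syd-5 (q = 0.000567). The other 2 tested genes did not pass. AALP, an aleurain-like protease gene, stood at 0.13 in 310-3d (q = 0.602) and -0.01 in syd-5 (q = 0.969), and VPE-alpha at -0.28 in 310-3d (q = 0.651) and -0.60 in syd-5 (q = 0.253). VPE-beta stayed under 1 FPKM in all 3 conditions.

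Markers of root and of green tissue were called in part. Of 13 tested root markers, 5 rose, 1 fell and 7 were not called in 310-3d, and 6 rose, 0 fell and 7 were not called in syd-5. Among all tested loci 13.7% rose and 14.4% fell in 310-3d, and 13.8% rose and 14.1% fell in syd-5. The endodermal genes CASP5 and CASP1 rose by 1.28 and 0.80 in 310-3d and by 1.45 and 1.07 in syd-5, while SCR fell by 0.41 in 310-3d. The summed level of the root list, over 14 genes, was 174 FPKM in 310-3d, 190.0 FPKM in syd-5 and 139 FPKM in WT, and none was at 0. CASP1 made up the largest part of the rise over WT, at 43.4 FPKM in 310-3d, 52.7 FPKM in syd-5 and 24.6 FPKM in WT. The CASP2 locus, merged with AT3G11540, came next, at 38.7 FPKM in 310-3d, 41.0 FPKM in syd-5 and 27.8 FPKM in WT. SCR, EXPA7, WOX5 and NRT2.1 had lower values in 310-3d and syd-5 than in WT. Of the 13 tested genes, 10 had higher values in each. PLT1 and PLT2, at 0.929 and 0.985 FPKM in WT, passed the filter of 1 FPKM only through 310-3d and syd-5. They could thus enter this count only as higher. WOX5 passed only through WT, at 1.38 FPKM, and could enter it only as lower. NRT2.1 stayed under 1 FPKM in all 3 conditions and was not tested. Of 8 green tissue markers, 1 rose, 2 fell and 5 were not called in 310-3d, and 0 rose, 2 fell and 6 were not called in syd-5. GLK1, a regulator of chloroplast development, fell by 1.31 in 310-3d and by 1.43 in syd-5, and the Rubisco gene RBCS2B by 0.87 in 310-3d and by 0.96 in syd-5. LHCA1, an antenna protein gene, rose by 0.39 in 310-3d. The green list summed to 20569 FPKM in 310-3d, 20399 FPKM in syd-5 and 29139 FPKM in WT, mostly from RBCS1A, and none was at 0. RBCS1A itself did not pass (q = 0.376 in 310-3d and 0.423 in syd-5), nor did RCA and CA1. The part of tissue make-up in the rise of ATG8E was not tested. None of 6 reference genes was called in either comparison, with medians of 0.01 in 310-3d and 0.04 in syd-5, and with 1 unadjusted p below 0.05 in 310-3d and 0 in syd-5. The largest value was that of ACT2, at 0.34 in 310-3d (q = 0.122) and 0.22 in syd-5 (q = 0.368). The reference list summed to 1058 FPKM in 310-3d, 1010 FPKM in syd-5 and 902 FPKM in WT, mostly from ACT2.

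Patterns like that of NBR1 were common. Likeness was the distance between the pairs of log2 fold changes to WT, over 3 conditions and 12292 other loci with 1 gene name and a mean of at least 5 FPKM. The nearest to NBR1 were AT1G47640, AT1G01930 and NRPB11, a subunit of RNA polymerase II, at distances of 0.00539, 0.00617 and 0.00652. Those nearest to ATG8F, the ATG8 gene with the highest mean, were AT2G20010, AT3G61980 and AT2G45670. Within a distance of 0.1 lay 9.87% of these loci for NBR1 and 3.53% for ATG8F, so a near neighbour is no sign of a particular likeness.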

How the data were processed

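RNA of whole seedlings was sequenced, with 3 replicates per genotype per the labels. TopHat2 2.1.1, Cufflinks 2.1.1 and Cuffdiff 2.1.1, with the TAIR10 genome, appear in the submitters' processing notes, with settings not given in the sources used here. The authors deposited FPKM values pooled per condition, per the file headers. Beside them the authors give, for each comparison with WT, a test statistic (a score), a p-value and a q-value. Depth is unknown.

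Calls are the authors' q below 0.05. A limma fit had been planned for values per library, which the table does not hold. Log2 fold changes are of (FPKM + 1) and understate changes of low genes, while log2 ratios have no pseudocount. The SE of a log2 ratio was that ratio divided by the statistic. The authors' p corresponds to a normal deviate of a median 1.74 times the statistic, over loci above the smallest p of the table, so intervals from the statistic are wide against p. For 310-3d against syd-5 errors were divided by that factor, and the WT error is counted in both ratios. Simulated data (18382 loci, 200 changed) had the errors the test assumes, gave 0, 4 and 7 false calls at differences of 0.5, 1 and 2, and cannot show whether these errors are right.

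Locus starts were raised by 1, since 36.3% of loci with 1 name then start where the RefSeq gene does, against 0.380% as deposited. Where several loci carry a gene's name, the one with the highest mean FPKM stood for it. Symbols came from the RefSeq gene table of TAIR10.1, which matched 32806 of 33553 names. Members, lists and tests were chosen with earlier results of these data known. Named are the 10 genes, SYD, SWI3D, per list and comparison up to 3 called rises and 3 called falls, and the nearest genes by pattern; 1 gene that the rule takes is not reported here. Further genes were named, after their values were seen, as examples that did not pass or as parts of a sum. The alternatives were another threshold, an added doubling or halving, another adjustment, single-name loci, a pseudocount of 0.1, no filter, quantile normalization and leaving ATG8F out of the sum. Python 3.11.15, numpy 2.4.6, pandas 2.3.3 and scipy 1.17.1 were used.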

Additional observations from a re-analysis of the deposited data

Results flagged for a closer look

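SYD and SWI3D differed between 310-3d and syd-5 by the test of the difference itself. In the log2 ratio to WT, 310-3d minus syd-5 was 2.56 for SYD and -2.07 for SWI3D, with adjusted p of 1.93e-37 and 4.01e-15 over 18382 loci. None of the 10 autophagy genes differed in this way.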

How the results depend on the processing

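With a doubling or halving added to the threshold, 0 of the 10 genes were called in 310-3d and 0 in syd-5, since the rise of ATG8E is smaller than that. ATG8E was the 1 call in each comparison with q below 0.01, with p adjusted within the comparison and over loci with 1 gene name. The shares of all loci called at these settings were not computed, so these counts have no background beside them. A pseudocount of 0.1, quantile normalization and, chosen after the data were seen, median ratio scaling left the sign of all 10 genes as it was in both comparisons. Without ATG8A and ATG8B, also chosen afterwards, the log2 ratio of the ATG8 sum was 0.25 in 310-3d and 0.29 in syd-5, against 0.29 and 0.31 with them. With errors from the test statistic, or over all loci tested in both, 0 of the 10 genes differed between 310-3d and syd-5, and 0 had an unadjusted p below 0.05. No paired analysis was possible because the table gives pooled values alone, and for the same reason no replicate could be left out. With errors on the scale of p, the number of genes whose interval lay within a doubling and a halving was 8 in each comparison, against 7 with errors from the test statistic. The table gives neither depth nor values per replicate.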

Other observations

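Implied SE above 0.5, as ATG8A and ATG8B have, were a minority among overlapping loci and rarer among the others. Among tested loci with a mean between 30 and 80 FPKM, 12.1% of the 1142 that overlap another locus had an implied SE above 0.5 in 310-3d, against 0.226% of the 2215 that do not. In syd-5 the shares were 12.7% and 0.271%. The median implied SE was 0.283 with overlap and 0.226 without it in 310-3d, and 0.287 and 0.226 in syd-5. The part of overlap in the errors of ATG8A and ATG8B was not tested. Overlap was judged by the listed spans throughout, which need not be the extent of a gene, and by these 33.6% of the 18505 kept loci overlap another.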
